A study of Mus musculus with 6 samples.

Results

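Necroptosis and pyroptosis are the lytic forms of regulated cell death, and 10 genes of their core machinery were read from the kidney mRNA sequencing table by gene symbol: *Ripk1*, *Ripk3*, *Mlkl* and *Zbp1* for necroptosis, and *Pycard*, *Nlrp3*, *Aim2*, *Casp1*, *Casp4* and *Gsdmd* for pyroptosis. All 10 were found among the 21367 genes of the table, and the rule that picks them uses symbols and no measured value. The kidneys came from 3 *Ptpn6*+/mev mice, which the labels also call SHP1 knockdown, and 3 wild-type littermates, all C57BL/6J and 7 weeks old. *Ptpn6*+/mev mice are heterozygous for the viable motheaten allele, a splice-site mutation of the gene for the phosphatase SHP-1, so the wild-type allele remains and the mutation is present in every cell type. Every mouse of both groups lost its right kidney, had the left renal pedicle clamped for 34 min, and gave its whole left kidney after 24 h of reperfusion. The comparison therefore addresses how the genotypes differed after renal ischemia-reperfusion injury (IRI), and kidneys without IRI were not analysed here.

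In necroptosis, the kinases RIPK1 and RIPK3 meet through a shared interaction motif, and RIPK3 phosphorylates the pseudokinase MLKL, which then breaches the plasma membrane. In pyroptosis, sensors such as NLRP3 and AIM2 recruit the adaptor ASC, which activates an inflammatory caspase, and the caspase cleaves gasdermin D into a pore-forming fragment. Both pathways have been studied in ischemic kidney, where dying tubular cells and infiltrating leukocytes can each carry the machinery, and both are controlled largely at the level of the protein, which mRNA does not measure.

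Each library held between 10271590 and 12361745 estimated counts. *Ptpn6* itself stood at 11.9, 14.7 and 13.6 FPKM in *Ptpn6*+/mev kidneys and at 17.5, 10.9 and 15.4 FPKM in wild-type kidneys, where FPKM scales the sequenced fragments to transcript length and to library depth. The groups overlapped through wild-type library 2, the lowest of all 6 (log2 fold change -0.19, SE 0.17, FDR 0.715, edgeR's quasi-likelihood test with Benjamini-Hochberg adjustment). Without that library the log2 fold change was -0.34 (SE 0.12, FDR 0.201, edgeR's quasi-likelihood test). With each library left out in turn it ranged from -0.34 to -0.062, the latter without wild-type library 1. The level of a transcript does not check a splice-site allele. Wild-type library 2 stood apart from the other 5 in endothelial and interferon-response genes, and the directions and medians that turned on it are given with and without it, here or in the closing section. Its 6 endothelial markers summed to 53.2 FPKM, against 127 to 137 FPKM in the other libraries. Its 22 interferon-response genes summed to 388 FPKM, against 142 to 218 FPKM elsewhere. The median log2 fold change of the endothelial markers was 0.20, and it was -0.19 without this library.

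None of the members differed between the genotypes at an FDR under 0.05. In the edgeR quasi-likelihood fit over the whole table, 8 of the 10 members passed the filter on low counts, and 0 of these 8 were called, against 0.138% of all 13036 genes tested. At an unadjusted p under 0.05 the count was also 0 of 8, against 12.2% of all genes tested. DESeq2 called 0 members against 3.04% of the genes with an adjusted p, and edgeR's exact test called 0 against 2.99%. Of the 8 log2 fold changes, *Ptpn6*+/mev against wild-type, 5 were positive and 3 negative, with a median of 0.13 beside a median of -0.002 over all genes tested, and without wild-type library 2 the members' median was 0.034. The members' FPKM values summed to 66.9, 71.1 and 74.3 in *Ptpn6*+/mev kidneys and to 72.2, 66.1 and 65.2 in wild-type kidneys, and these sums overlapped. In whole kidney, fewer cells of a type and less RNA per cell cannot be told apart, and this holds for each level below.

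**Figure D1:**
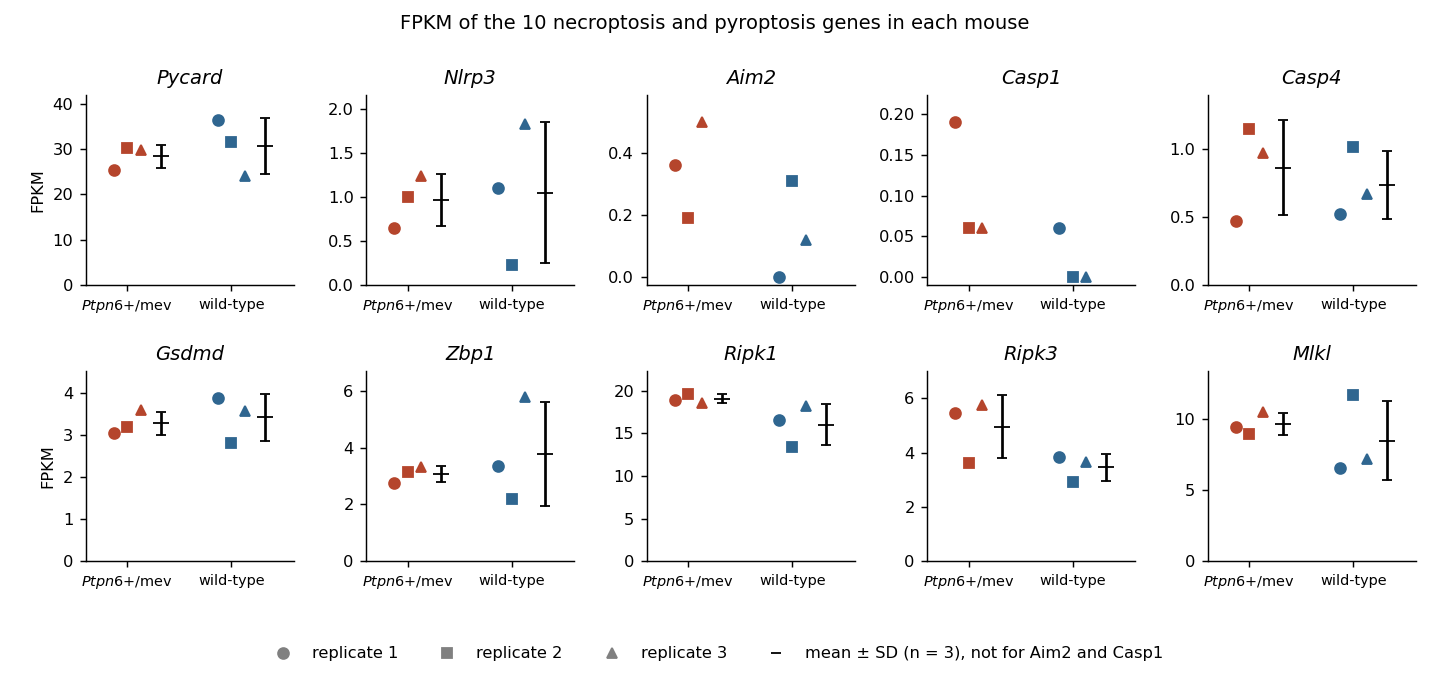
FPKM of each of the 10 members in each library, on a separate linear axis per gene. Points are single mice and bars are the mean ± SD of 3 mice, which are not drawn for *Aim2* and *Casp1* because these had at most 5 counts in a library. *Ripk1* is the member whose *Ptpn6*+/mev points all lie above the wild-type points, and the groups overlap for the other 9.

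The members covered a wide range of abundance, which sets how well each could be compared. By mean FPKM over the 6 libraries the order was *Pycard* (29.6), *Ripk1* (17.6), *Mlkl* (9.06), *Ripk3* (4.21), *Zbp1* (3.43), *Gsdmd* (3.36), *Nlrp3* (1.01), *Casp4* (0.797), *Aim2* (0.247) and *Casp1* (0.0617). *Pycard* exceeded 81.5% of the 16529 genes with a count, and *Casp1* exceeded 10.8% of them. *Pycard*, *Ripk1* and *Mlkl* each stood above the next gene in all 6 libraries, and so did *Gsdmd* above *Nlrp3* and *Casp4* above *Aim2*. *Zbp1* and *Gsdmd* could not be ordered, since *Zbp1* was the higher in only 1 of 6 libraries despite its larger mean, and *Nlrp3* exceeded *Casp4* in 4 of 6. *Ripk3* exceeded *Zbp1* and *Aim2* exceeded *Casp1* in 5 of 6 libraries each.

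RIPK1, the kinase that sits downstream of the TNF receptor and serves both survival and death signalling, is encoded at chr13:34002363-34037147 on the plus strand (GRCm38). *Ripk1* measured 19.0, 19.7 and 18.6 FPKM in *Ptpn6*+/mev kidneys and 16.5, 13.4 and 18.2 FPKM in wild-type kidneys. All 3 *Ptpn6*+/mev values lay above all 3 wild-type values, with the nearest pair, 18.6 and 18.2, almost touching and wild-type library 2 the lowest. The means were 19.1 ± 0.54 and 16.0 ± 2.44 FPKM (SD, n = 3 each). Groups apart were found for 20.4% of all genes tested, 14.0% in this direction, and *Ripk1* was 1 of the 8 tested members. The fitted log2 fold change was 0.19 (SE 0.11, 95% interval -0.06 to 0.43), and the difference did not pass the test (FDR 0.554, edgeR's quasi-likelihood test). Without wild-type library 2 it was 0.09. On CPM, which scales counts by library depth alone, the lowest *Ptpn6*+/mev value was 67.7 and the highest wild-type value 66.6, and after TMM scaling of the libraries the groups overlapped, where 9.64% of all genes tested had *Ptpn6*+/mev values apart and higher. The gene overlaps *Serpinb6a* on the opposite strand, and 6.67% of the 100-base windows of its transcripts also occur in *Serpinb6a* or a pseudogene, so reads there may be shared.

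RIPK3, the kinase that phosphorylates MLKL, had the largest fitted difference of the tested members. *Ripk3* (chr14:55784995-55788865, minus strand) measured 5.46, 3.63 and 5.77 FPKM in *Ptpn6*+/mev kidneys and 3.83, 2.90 and 3.64 FPKM in wild-type kidneys. *Ptpn6*+/mev libraries 1 and 3 were the highest, but library 2 fell within the wild-type range, so the groups overlapped. The means were 4.95 ± 1.16 and 3.46 ± 0.49 FPKM (SD, n = 3 each), from 60 to 118 counts per library. The log2 fold change was 0.46 (SE 0.23), with a 95% interval of 0.957-fold to 1.97-fold, and did not pass the test (FDR 0.469, edgeR's quasi-likelihood test). It stayed between 0.33 and 0.64 when each library was left out in turn.

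MLKL is the executioner of necroptosis. *Mlkl* (chr8:111311797-111338177, minus strand) measured 9.46, 8.95 and 10.5 FPKM in *Ptpn6*+/mev kidneys and 6.57, 11.7 and 7.21 FPKM in wild-type kidneys. Wild-type library 2 held the highest value of all 6, and the other pair of wild-type libraries held the lowest. The means were 9.63 ± 0.78 and 8.48 ± 2.78 FPKM (SD, n = 3 each). In the full fit the log2 fold change was 0.10 (SE 0.24, FDR 0.918, edgeR's quasi-likelihood test). Without wild-type library 2 it was 0.44 (SE 0.14, unadjusted p = 0.0107), and the FDR of 0.151 was the lowest of any member under any alternative. Without wild-type library 1 it was -0.07, so the direction rested on single wild-type libraries. In that fit without wild-type library 2, 1.8% of all genes tested were called and 17.2% had an unadjusted p under 0.05. *Mlkl* moved with *Casp8* and the interferon-response sum in this library, and the part of either in the value was not tested.

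ZBP1 is a nucleic acid sensor that engages RIPK3 and is itself induced by interferon. *Zbp1* (chr2:173206612-173218923, minus strand) measured 2.77, 3.15 and 3.31 FPKM in *Ptpn6*+/mev kidneys and 3.34, 2.19 and 5.80 FPKM in wild-type kidneys. The wild-type group held both the lowest value, in library 2, and the highest, in library 3, so all *Ptpn6*+/mev values lay inside the wild-type range. The means were 3.08 ± 0.28 and 3.78 ± 1.84 FPKM (SD, n = 3 each), and the log2 fold change was -0.08 (SE 0.35, FDR 0.955, edgeR's quasi-likelihood test). It was -0.35 without wild-type library 2 and 0.33 without wild-type library 3. *Zbp1* was thus lowest in the library with the highest interferon-response sum.

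ASC, the adaptor encoded by *Pycard* (chr7:127989708-127993867, minus strand), links inflammasome sensors to caspases and was the most abundant member. It measured 25.5, 30.2 and 29.7 FPKM in *Ptpn6*+/mev kidneys and 36.4, 31.6 and 24.1 FPKM in wild-type kidneys. The highest and the lowest values were both wild-type, and the groups overlapped. The means were 28.4 ± 2.57 and 30.7 ± 6.19 FPKM (SD, n = 3 each), with a log2 fold change of -0.10 (SE 0.15, FDR 0.862, edgeR's quasi-likelihood test). The 95% interval ran from 0.729-fold to 1.19-fold. Of the 100-base windows of its transcripts, 10.3% also occur in the overlapping gene model *Gm45205*.

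NLRP3 is the inflammasome sensor that responds to potassium efflux and other signs of cell damage. *Nlrp3* (chr11:59541568-59566956, plus strand) measured 0.65, 1.00 and 1.24 FPKM in *Ptpn6*+/mev kidneys and 1.10, 0.23 and 1.83 FPKM in wild-type kidneys. Wild-type libraries 2 and 3 held the extremes and the *Ptpn6*+/mev values lay between them. The means, 0.96 ± 0.30 and 1.05 ± 0.80 FPKM (SD, n = 3 each), were lower in *Ptpn6*+/mev kidneys, whereas the fit to counts gave a positive log2 fold change of 0.28 (SE 0.49, FDR 0.882, edgeR's quasi-likelihood test). The counts were 18, 41 and 39 against 33, 10 and 42. Without wild-type library 2 the log2 fold change was -0.09, so neither direction held.

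AIM2, the sensor of cytosolic DNA, and caspase-1, the protease that matures interleukin-1 family cytokines, were close to the limit of detection. *Aim2* (chr1:173350879-173466040, plus strand) gave 5, 2 and 2 counts in *Ptpn6*+/mev kidneys and 0, 3 and 3 counts in wild-type kidneys. The groups overlapped, and the ratio of the summed counts adjusted for depth, 1.63, had an exact 95% interval of 0.518 to 5.57 that covers counting error only. *Casp1* (chr9:5298517-5307265, plus strand) gave 3, 1 and 1 counts in *Ptpn6*+/mev kidneys and 1, 0 and 0 in wild-type kidneys. That is 6 of 65521719 counts in all 6 libraries, and with every library at or under 3 counts no fold is given. None of the 1398 100-base windows of the *Casp1* transcript occurs in another gene's transcripts. Neither gene passed the filter, so neither was tested.

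CASP4 is the mouse caspase, also known as caspase-11, that binds intracellular lipopolysaccharide and cleaves gasdermin D without a sensor such as NLRP3 or AIM2. *Casp4* (chr9:5308828-5336783, plus strand) lies next to *Casp1* and measured 0.47, 1.14 and 0.97 FPKM in *Ptpn6*+/mev kidneys and 0.52, 1.01 and 0.67 FPKM in wild-type kidneys. Library 1 was the lowest of both groups, and the groups overlapped. On 7 to 17 counts per library the log2 fold change was 0.16 (SE 0.46, FDR 0.934, edgeR's quasi-likelihood test), with a wide 95% interval of 0.536-fold to 2.32-fold, and it was 0.48 without wild-type library 2. *Casp4* exceeded *Casp1* in FPKM in every library, so of this pair of gasdermin D-cleaving caspases it was the more abundant transcript.

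Gasdermin D forms the pyroptotic pore. *Gsdmd* (chr15:75862327-75867408, plus strand) measured 3.06, 3.20 and 3.60 FPKM in *Ptpn6*+/mev kidneys and 3.90, 2.81 and 3.59 FPKM in wild-type kidneys. The highest and the lowest values were again both wild-type, and the *Ptpn6*+/mev values lay between them. The means were 3.29 ± 0.28 and 3.43 ± 0.56 FPKM (SD, n = 3 each). The log2 fold change was -0.13 (SE 0.20, FDR 0.863, edgeR's quasi-likelihood test), with a 95% interval of 0.664-fold to 1.26-fold. *Gsdmd* kept a negative sign when each library was left out in turn, between -0.23 and -0.05.

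**Figure D2:**
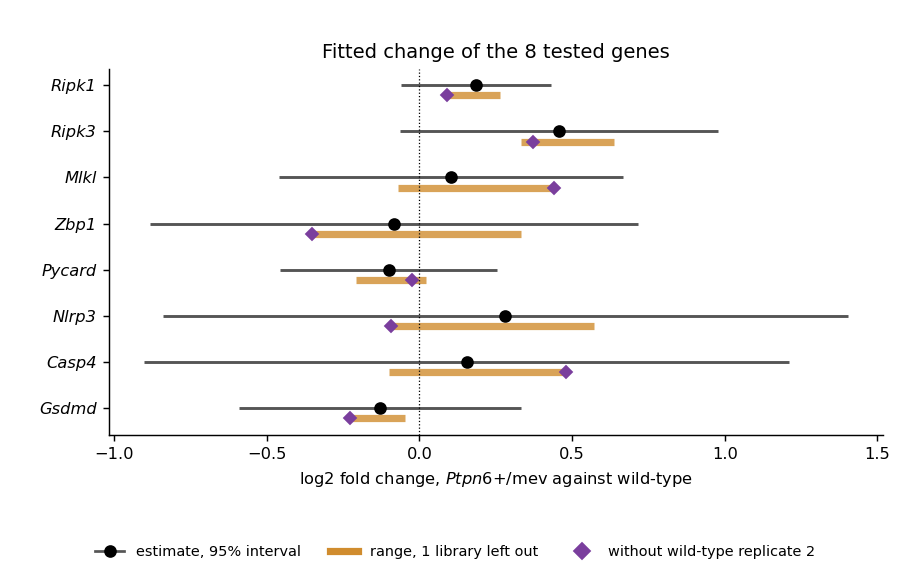
Fitted log2 fold change of the 8 tested members, *Ptpn6*+/mev against wild-type, with the 95% interval of edgeR's quasi-likelihood fit, and the range over the 6 fits that leave out one library each, with the fit without wild-type library 2 as a diamond. Every interval includes 0, and the interval is narrowest for *Ripk1* (-0.06 to 0.43) and wide for *Nlrp3* and *Casp4*.

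Within the wild-type group the members followed different libraries. Of the 8 tested members, 5 were lowest in wild-type library 2, namely *Ripk1*, *Ripk3*, *Zbp1*, *Nlrp3* and *Gsdmd*, and 1, *Mlkl*, was highest there. Over all genes tested, 42.8% were lowest and 17.3% highest in that library. Macrophage markers were low there too, with a sum over 16 genes of 207 FPKM against 264 to 416 FPKM in the other libraries, and 13 of the 16 were at their lowest. The part of cell composition in the members' values was not tested.

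**Figure D3:**
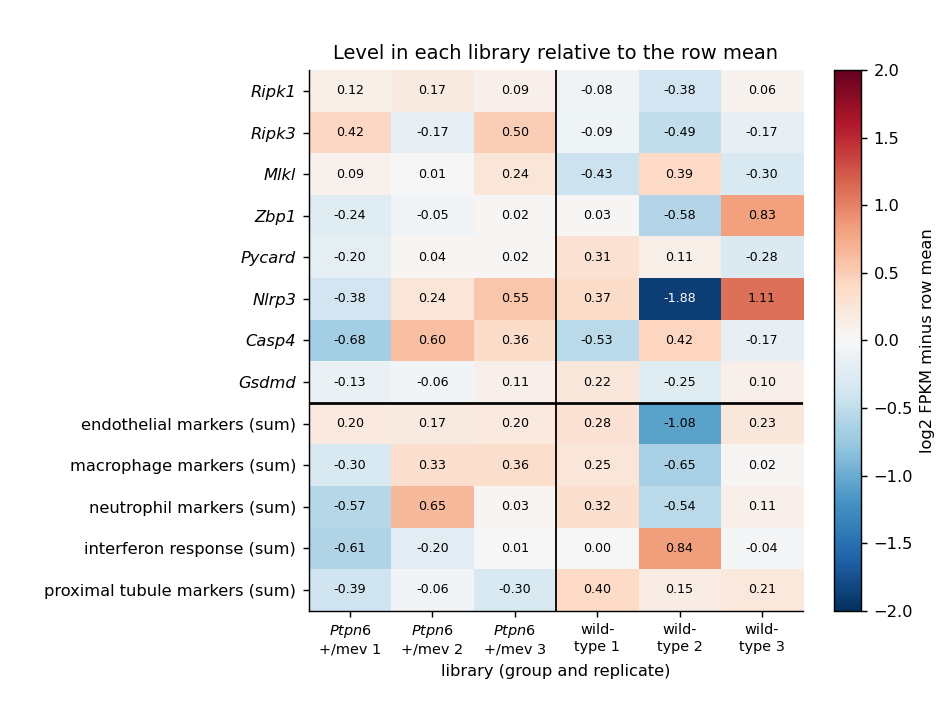
log2 FPKM of the 8 tested members and of the summed marker and interferon-response genes in each library, minus the mean of the row over the 6 libraries. Wild-type library 2 is the lowest for 5 members, for endothelial (-1.08) and for macrophage (-0.65) markers, and the highest for *Mlkl* (0.39) and the interferon response (0.84).

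Neutrophil markers were detected but did not separate the genotypes, with sums of 26.9 to 62.8 FPKM over 10 genes in *Ptpn6*+/mev kidneys and 27.4 to 49.7 FPKM in wild-type kidneys. Lymphocyte markers summed to at most 3.89 FPKM over 11 genes, and 0 of the 11 passed the filter. Proximal tubule markers, the defining genes of the tissue, were present in every library. Their sum over 10 genes was lower in *Ptpn6*+/mev kidneys, at 508, 640 and 541 FPKM against 884, 739 and 772 FPKM. Of these 10 genes, 1 fell at an FDR under 0.05, against 0.138% of all genes tested called. It was the organic anion transporter *Slc22a8* (log2 fold change -0.91, SE 0.12, FDR 0.0443, edgeR's quasi-likelihood test). An unadjusted p under 0.05 was found for 6, all lower, against 12.2% of all genes tested. Of the 10 log2 fold changes 9 were negative, with a median of -0.58. The fall was uneven, largest for *Slc13a3* (-1.25) and *Slc22a6* (-1.11), while *Slc5a2* (-0.04) and *Slc5a12* (0.01) lay near 0. The call of *Slc22a8* was lost when any library other than wild-type library 2 was left out, with FDRs from 0.0543 to 0.343. The part of this shift in the members' levels was not tested. Distal nephron markers, 8 genes, gave 0 calls, 2 at an unadjusted p under 0.05 and a median log2 fold change of -0.26, which was 0.19 without wild-type library 2, and tubular injury genes, also 8, gave 0 calls, 3 at an unadjusted p under 0.05 and a median of 0.09, which ranged from -0.0060 to 0.17 with a library left out.

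The unit mattered for part of the list, because count and FPKM together imply a transcript length for each library. It is a length that the authors' software used only if the same tool made both values, which is not given. For *Ripk1*, *Ripk3*, *Mlkl*, *Gsdmd* and *Casp4* this length varied by at most 1.02-fold between libraries. For *Nlrp3* it was 2696, 3958 and 2923 bases in *Ptpn6*+/mev kidneys and 2781, 3960 and 1857 bases in wild-type kidneys, a 2.13-fold range, so its FPKM and its counts order the libraries differently. *Zbp1* had implied lengths of 1195 to 1263 bases in *Ptpn6*+/mev kidneys and 998 to 1055 bases in wild-type kidneys, and these groups did not overlap. Among the 1708 genes with an FPKM of at least 1 in every library whose implied length varied at least 1.2-fold, 10.5% had groups apart in either direction. *Pycard* varied between 1152 and 1463 bases with the groups overlapping. *Aim2*, on at most 5 counts per library, had the widest range, 372 to 2022 bases.

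**Figure D4:**
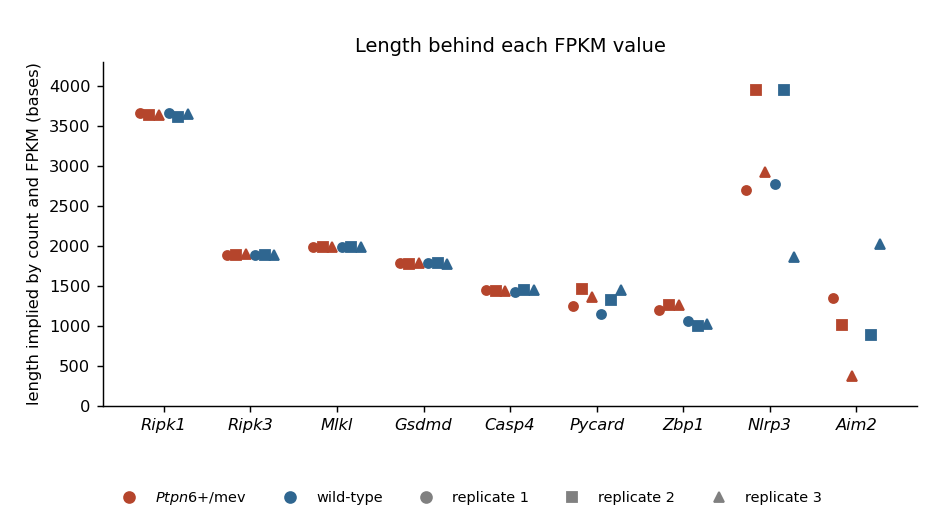
Transcript length in bases implied by the count and FPKM in each library, on a linear axis, for 9 members. *Casp1* is left out for its low counts, and *Aim2*, also at low counts, has 5 points. The lengths of *Ripk1*, *Ripk3*, *Mlkl*, *Gsdmd* and *Casp4* are nearly constant, *Nlrp3* spans 1857 to 3960 bases, and the *Zbp1* points of the genotypes do not overlap.

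The regulators upstream of necroptosis, 25 genes of the TNF receptor complex and its brakes and of the Toll-like receptor arm, gave 0 calls among the 24 tested, with 4 at an unadjusted p under 0.05 and a median log2 fold change of -0.02, or 0.053 without wild-type library 2. *Tnfrsf1a*, the TNF receptor that nucleates the complex, was the most abundant, at 84.1 to 99.9 FPKM in *Ptpn6*+/mev kidneys and 83.0 to 120 FPKM in wild-type kidneys (FDR 0.634, edgeR's quasi-likelihood test). *Casp8*, the protease that cleaves RIPK1 and RIPK3 and so restrains necroptosis, measured 24.0, 31.5 and 29.0 FPKM against 20.7, 63.5 and 21.7 FPKM. Wild-type library 2 alone was far above the rest, and the log2 fold change went from -0.34 to 0.31 without it (FDR 0.789 and 0.2, edgeR's quasi-likelihood test). *Cflar*, which encodes the caspase-8 partner cFLIP, had a log2 fold change of -0.27 (unadjusted p = 0.0496, FDR 0.406, edgeR's quasi-likelihood test). The adaptors *Fadd* and *Ticam1* had log2 fold changes of 0.13 and 0.01, and *Fadd* was at 0.067 without wild-type library 2.

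Some of these regulators lay further from 0 without passing the test. *Tnfaip3*, which encodes the ubiquitin-editing brake A20, measured 5.22, 4.81 and 8.17 FPKM in *Ptpn6*+/mev kidneys and 3.80, 2.14 and 4.43 FPKM in wild-type kidneys. *Tlr4*, the lipopolysaccharide receptor, measured 1.83, 1.84 and 1.59 FPKM against 0.82, 1.07 and 1.07 FPKM. Both were higher in all 3 *Ptpn6*+/mev libraries than in any wild-type library, a separation found for 14.0% of all genes tested, with log2 fold changes of 0.63 (SE 0.21, FDR 0.281) and 0.76 (SE 0.22, FDR 0.207) in edgeR's quasi-likelihood test. The log2 fold change of *Tnfaip3* was 0.42 without wild-type library 2. *Ikbkg*, the NEMO subunit of the IκB kinase complex, measured 42.7, 31.4 and 29.4 FPKM against 50.2, 42.4 and 41.3 FPKM, where one *Ptpn6*+/mev value lay within the wild-type range. On TMM-scaled CPM all 3 *Ptpn6*+/mev values lay below the wild-type values, from 679, 522 and 655 counts against 835, 1076 and 913 (log2 fold change -0.57, SE 0.16, FDR 0.208, edgeR's quasi-likelihood test). On FPKM 6.38% of all genes tested were apart and lower, and the share on TMM-scaled CPM is not given here, so this separation has no background beside it.

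Of 19 other inflammasome sensors and partners, 15 were tested and 0 were called, with 1 at an unadjusted p under 0.05 and a median log2 fold change of 0.18. This median was 0.029 without *Ptpn6*+/mev library 3 and 0.031 without wild-type library 3. It was 0.087 in limma on log2(FPKM + 1), where the median over all genes tested was 0.062, against -0.002 in the main fit. The gene with an unadjusted p under 0.05 was *Panx1*, which encodes the channel pannexin 1 that releases ATP and is opened by caspase cleavage. It measured 4.20, 7.27 and 2.75 FPKM in *Ptpn6*+/mev kidneys and 1.52, 1.23 and 1.65 FPKM in wild-type kidneys. It gave 150, 145 and 170 counts in *Ptpn6*+/mev kidneys and 94, 73 and 117 counts in wild-type kidneys. All *Ptpn6*+/mev values were the higher in both units, with a log2 fold change on counts of 0.77 (SE 0.16, FDR 0.114, edgeR's quasi-likelihood test). Groups apart in this direction were found for 14.0% of all genes tested on FPKM and 9.64% on TMM-scaled CPM. On FPKM the difference was larger, 1.15 on the log2(FPKM + 1) scale and 1.53 on the log2(FPKM + 0.1) scale (FDR 0.142 and 0.13, limma). *Ptpn6*+/mev library 3 had the most counts of its group, 170, but the lowest FPKM, 2.75. The implied length thus differed between libraries, and the FPKM difference also holds this difference in length. DESeq2 (FDR 0.0131) and edgeR's exact test (FDR 0.00915) called *Panx1*, so this call depended on the test. DESeq2 called 3.04% of the genes with an adjusted p, and the exact test called 2.99% of all genes tested. *Nek7*, the NLRP3-binding kinase, *Txnip*, an NLRP3 partner, and *Nlrc4*, a sensor of bacterial proteins, had log2 fold changes of 0.19, 0.04 and -0.35, none past the test. *Nek7* ranged from 0.060 without *Ptpn6*+/mev library 1 to 0.32 without wild-type library 2, and *Nlrc4* was -0.23 without wild-type library 1.

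Downstream of the pore, 24 genes for other gasdermins, released cytokines and their regulators gave 0 calls among the 18 tested, with 4 at an unadjusted p under 0.05 and a median log2 fold change of -0.26. This median was -0.077 without *Ptpn6*+/mev library 1, -0.062 without wild-type library 3 and -0.14 without wild-type library 2. It was -0.066 and -0.040 in limma on FPKM with a pseudocount of 1 and 0.1. In these limma fits the median over all genes tested was 0.062 and 0.076, against -0.002 in the main fit. *Il18*, a cytokine matured by caspase-1, measured 1.32, 0.98 and 1.58 FPKM in *Ptpn6*+/mev kidneys and 2.10, 2.38 and 2.56 FPKM in wild-type kidneys. All 3 *Ptpn6*+/mev values lay below the wild-type values, on 9 to 28 counts, as 6.38% of all genes tested did, and the log2 fold change of -0.92 (SE 0.32) missed the threshold (FDR 0.295, edgeR's quasi-likelihood test). *Il1b*, the other caspase-1 substrate, measured 3.08, 8.66 and 4.23 FPKM against 5.11, 2.21 and 10.6 FPKM, with wide overlap. *Il1rn*, the interleukin-1 receptor antagonist, had a log2 fold change of 0.78 (FDR 0.558, edgeR's quasi-likelihood test), which was 0.22 without *Ptpn6*+/mev library 2.

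Gasdermin E, listed under its older symbol *Dfna5*, is another pore-forming gasdermin and was more abundant here than *Gsdmd* in every library. It measured 5.32, 8.71 and 8.21 FPKM in *Ptpn6*+/mev kidneys and 9.85, 8.54 and 7.64 FPKM in wild-type kidneys, which overlapped (log2 fold change -0.32, FDR 0.537, edgeR's quasi-likelihood test). With a library left out the log2 fold change ranged from -0.47 without *Ptpn6*+/mev library 3 to -0.21 without *Ptpn6*+/mev library 1. *Gsdmc3* was at 3.46 FPKM in wild-type library 2 and at most 1.09 FPKM elsewhere, and its log2 fold change went from -1.33 to 0.33 without that library. *Ninj1*, which encodes the protein that ruptures the membrane after pore formation, and the alarmin gene *Hmgb1* had log2 fold changes of 0.07 and 0.05.

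The ESCRT-III machinery, which removes damaged membrane and can delay both kinds of lysis, was measured for 16 genes. All 16 were tested, 0 were called and 0 had an unadjusted p under 0.05, with a median log2 fold change of 0.05. The median ranged from 0.023 to 0.068 with a library left out, the lowest without wild-type library 3. It was 0.13 in limma on FPKM with either pseudocount. The median over all genes tested was higher there too, at 0.062 and 0.076 with a pseudocount of 1 and 0.1, against -0.002 in the main fit. The most abundant ESCRT-III genes *Chmp4b* and *Chmp2a* had log2 fold changes of -0.01 and -0.14, and *Chmp4c* one of 0.14. With a library left out *Chmp2a* ranged from -0.21 to -0.081 and *Chmp4c* from 0.045 without wild-type library 3 to 0.30 without wild-type library 2. Interferon-response genes, which include inducers of *Zbp1*, numbered 22, of which 21 were tested. None was called, 3 had an unadjusted p under 0.05, all lower in *Ptpn6*+/mev kidneys, and 19 of the 21 fold changes were negative, with a median log2 fold change of -0.57. Of the 22 genes, 17 were highest in wild-type library 2, and the median was -0.25 without it. *Ifit3*, an antiviral effector, measured 9.51, 17.5 and 26.3 FPKM against 25.4, 86.2 and 19.5 FPKM, so wild-type library 2 was the highest by a wide margin. *Bst2* (log2 fold change -0.44, FDR 0.347) and *Rsad2* (0.13, FDR 0.852) did not pass edgeR's quasi-likelihood test either.

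**Figure D5:**
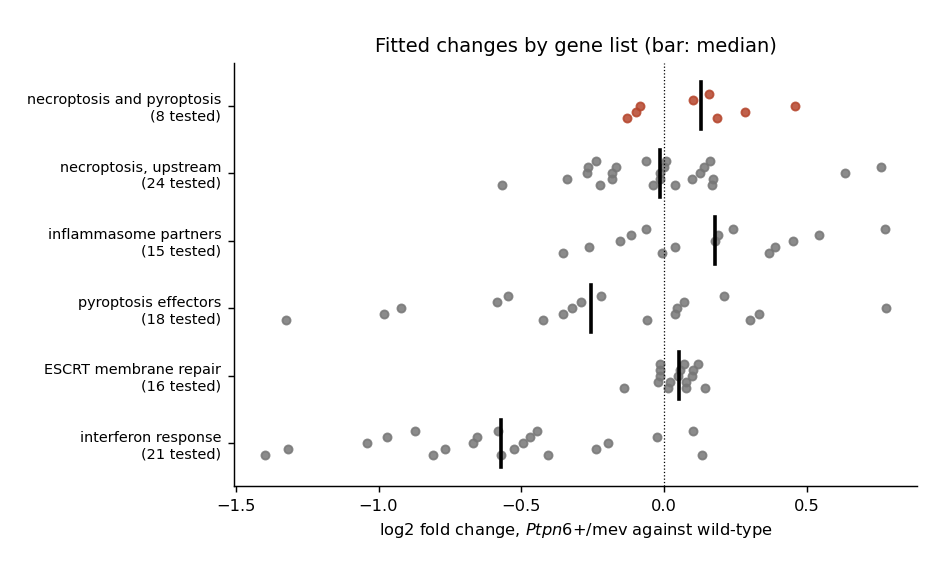
Fitted log2 fold change, *Ptpn6*+/mev against wild-type, of each tested gene in the member list and the related gene lists, with the median of each list marked. The medians are 0.13 for the members, -0.26 for the pyroptosis effectors and -0.57 for the interferon response, and each of the 6 lists drawn has genes on both sides of 0.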

How the data were processed

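Poly-A mRNA of 1 left kidney per mouse was sequenced in 6 libraries, 3 per genotype. The authors aligned reads to GRCm38.p5, and the submitters' processing notes name Bowtie2, TopHat2 2.0.3.12, Cufflinks and RSEM. The authors deposited estimated counts and FPKM values for each gene and library. The tool behind the counts is not given in the sources used here, and the library kit does not mark strand. Estimated counts were rounded, since 1744 of 21367 genes, *Ripk1* among them, had a fractional count.

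The fit used edgeR 4.0.16 in R 4.3.3 (TMM, filterByExpr, quasi-likelihood F-test, Benjamini-Hochberg FDR over 13036 genes, threshold 0.05). Levels are the deposited FPKM. On simulated data with 12922 genes, this fit recovered 63% of genes changed 2-fold and 87% of those changed 4-fold, with false positives making up 9.64% of the genes called. The simulated libraries of a group were drawn alike, and none stood apart as wild-type library 2 did. These rates therefore need not hold for the real libraries. The 15 alternatives were DESeq2's size factors, upper quartile scaling, DESeq2 1.42.0, edgeR's exact test, limma 3.58.1 on log2(FPKM + 1) or log2(FPKM + 0.1), no filter, at least 10 counts in every library, a replicate block, and leaving out each library. Positions and transcripts come from GENCODE M21 (GRCm38).

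The members and the gene lists were chosen with earlier results of these data known. Named genes are the members, *Ptpn6*, set partners of members and, from each related pathway list, the genes past the threshold or else the 2 most abundant and the largest rise and fall. Marker lists are given by their sums and counts. A symbol on several rows was read from its most abundant row. The values of 1 gene of a related list are not reported here.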

Additional observations from a re-analysis of the deposited data

How the results depend on the processing

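None of the members was called under any of the 15 alternatives, where their FDRs were 0.151 or more. Of the members' 48 fold changes with 1 library left out, 8 changed sign, and 0 of the members' other fold changes did. The members' median log2 fold change ranged from -0.052 to 0.17 with a library left out. The ranges that crossed 0 were -0.069 to 0.44 for *Mlkl*, -0.099 to 0.48 for *Casp4*, -0.094 to 0.57 for *Nlrp3*, -0.21 to 0.021 for *Pycard* and -0.35 to 0.33 for *Zbp1*. They were -0.59 to 0.31 for *Casp8*, -0.057 to 0.036 for *Ticam1*, -0.057 to 0.14 for *Txnip*, -0.0091 to 0.16 for *Ninj1*, -0.76 to 0.46 for *Il1b*, -0.085 to 0.29 for *Hmgb1*, -1.80 to 0.33 for *Gsdmc3*, -0.049 to 0.017 for *Chmp4b* and -0.032 to 0.34 for *Rsad2*. *Chmp4b* was also positive in limma on FPKM, at 0.0556 with a pseudocount of 1 and 0.0558 with a pseudocount of 0.1. The median over all genes tested was 0.0624 and 0.0763 in these fits, against -0.002 in the main fit. *Chmp4b* lay below that median in each, so this change of sign is no change relative to the other genes.

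The number of genes called over the whole table was 18, and it was 388 in DESeq2, 390 in edgeR's exact test and 52 without a filter. With a library left out it ranged from 1 to 237, being 237 without wild-type library 2, 67 without wild-type library 3 and 10 without wild-type library 1, and 4, 11 and 1 without *Ptpn6*+/mev libraries 1, 2 and 3. DESeq2 and the exact test each called 1 inflammasome partner, 1 tubular injury gene and 4 proximal tubule markers. Proximal tubule calls numbered 0 in limma with either pseudocount, 2 without a filter and 0 to 5 with a library left out, the 5 without wild-type library 2. Pyroptosis effectors and tubular injury genes each gave 0 to 1 calls with a library left out, the 1 again without wild-type library 2. The causes were not tested.

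Libraries of the same number did not deviate together (correlations across genes of -0.144, -0.184 and -0.130). These deviations were taken from means of only 3 libraries, so they cannot exclude that the numbers pair the mice. With the replicate number as a block, 1 gene was called over the whole table, 0 proximal tubule markers and 0 members. *Casp1* and *Aim2*, with at most 5 counts in a library, and *Casp4*, with 7 to 17, had the fewest counts of the members.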
